A study of Arabidopsis thaliana with 625 samples.

Results

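The cells described here were the reporter-positive, photosynthesis-low cells of Arabidopsis thaliana seedling shoots, taken to stand for epidermal cells and compared between 2 reporter lines. In the TMMp line (TMMp::TMM-YFP) the TMM promoter drives TMM, a receptor-like protein, fused to YFP. In the ATML1p line (ATML1p::YFP-RCI2A) YFP is joined to the small membrane protein RCI2A and expressed from the ATML1 promoter. Both lines were sampled at 10 days after germination, no other allele or treatment is named, and the sort gates are not given in the sources used here. Each profile was 1 cell, read by Smart-seq2, which copies whole transcripts in the wells of a plate, and the deposited values are TPM, transcript levels scaled to a fixed total per cell. A cell was selected when its YFP row was at a TPM of at least 1 and its mean log2(TPM + 1) over 5 photosynthesis genes was under 5. This rule kept 422 of 621 cells: 351 of 478 TMMp cells, in pools of 103 and 248 on 7 plates, and 71 of 143 ATML1p cells, in pools of 22 and 49 on 5 plates. The TMMp plates held 46 to 54 selected cells each and the ATML1p plates 8 to 23. No plate mixed the lines, so effects of plate and line cannot be told apart. Whether pools or plates came from separate plants is not stated, and p-values therefore cover the spread between plates or pools, which may be technical.

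The leaf epidermis forms from the protoderm, a surface layer marked by HD-ZIP IV transcription factors such as ATML1 and PDF2 and by the cell wall protein PDF1. Some protodermal cells enter the stomatal lineage. The bHLH factor SPCH starts its asymmetric divisions, MUTE ends them and commits the cell, and FAMA guides the last symmetric division into a pair of guard cells, while TMM and the ERECTA-family receptors read EPF peptides that space the stomata. TMM is active in the early lineage, whereas the ATML1 promoter is active across the epidermis.

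The 2 criteria removed different cells in the 2 lines. In TMMp, 64 cells without YFP and with low photosynthesis genes were left out, along with 60 YFP-positive and 3 YFP-negative cells with high photosynthesis genes. In ATML1p, the same classes held 20, 19 and 33 cells. The YFP-positive, photosynthesis-high cells had a median photosynthesis mean of 6.23 in TMMp and 9.69 in ATML1p on the log2 scale, and PDF1 was detected (TPM of at least 1) in 78.3% of them in TMMp and 10.5% in ATML1p. The selected cells nearest the photosynthesis threshold were at 4.99 in TMMp and 4.91 in ATML1p, and the nearest YFP-positive cells outside it at 5.13 in TMMp and 5.39 in ATML1p. The lowest YFP value among selected cells was 4.53 TPM in TMMp and 10.5 TPM in ATML1p, and all unselected photosynthesis-low cells were listed at 0. The share of a plate's cells that was selected lay between 69.9% and 76.9% in TMMp. It was 40.0%, 70.6%, 26.7%, 54.5% and 60.5% on ATML1p plates ML1, ML2, ML1-5, ML1-6 and ML1-7, the order in which ATML1p plates are given throughout.

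**Figure D1:**
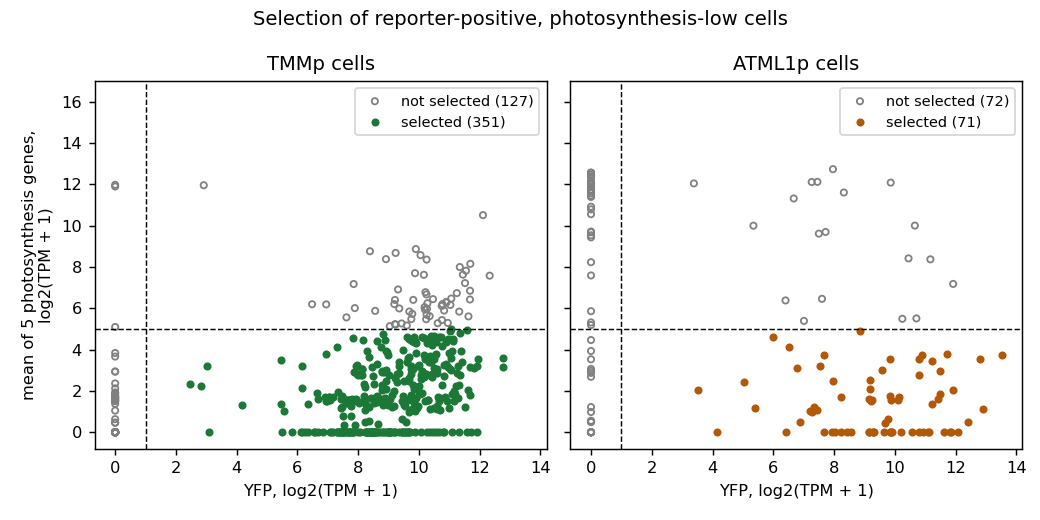
Each point is 1 cell, with YFP on the x axis and the mean of the 5 photosynthesis genes on the y axis, both in log2(TPM + 1), for TMMp (left) and ATML1p (right). Dashed lines mark the 2 thresholds, and filled points are the 351 selected TMMp cells and the 71 selected ATML1p cells. The unselected cells of TMMp lie mostly just above the photosynthesis threshold or at 0 YFP, and those of ATML1p include a group high in photosynthesis genes at 0 YFP.

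Epidermal markers were checked without ATML1, whose promoter drives the YFP that chose the ATML1p cells. At least 1 of PDF1, PDF2, FDH and CER6 was detected in 281 of the 351 selected TMMp cells and 44 of the 71 selected ATML1p cells, and at least 2 in 52.1% of those in TMMp and 35.2% of those in ATML1p. With ATML1 counted as well, 289 TMMp cells and 64 ATML1p cells detected a marker, and ATML1 alone was found in 64 of the ATML1p cells. Markers other than ATML1 were thus found in a smaller share of the selected cells in ATML1p. At least 1 of the 4 was seen in 9.1% of the YFP-negative, photosynthesis-high ATML1p cells. The summed level of the 5 mesophyll markers, LHCB1.1, LHCB1.2, RBCS1A, RBCS1B and CA1, ranged from 522 to 1063 TPM over the TMMp plates and from 537 to 1001 TPM over the ATML1p plates, against a mean of 38323 TPM in the YFP-negative, photosynthesis-high ATML1p cells. The 5 vascular markers summed to 1.9 to 14 TPM over the TMMp plates and 0 to 192 TPM over the ATML1p plates, with SULTR2;1 and APL at 0 in TMMp and APL and XCP1 at 0 in ATML1p. Of the 4 trichome markers, TRY was at 0 in the selected TMMp cells, and GL1, GL3, GL2 and TRY were all at 0 in those of ATML1p. A selected cell had a median of 2816 detected genes in TMMp and 3166 in ATML1p. Plate medians ran from 2550 to 3366 in TMMp, and plate ML2 of ATML1p, at 1376, stood apart from the other ATML1p plates, which lay between 3153.5 and 4098.5. Read depth is unknown, since TPM do not keep it.

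The transcripts carried by the transgenes, on which or beside which the cells were chosen, are given without a test. TMM averaged 1237 and 1232 TPM in the TMMp pools and 69 and 32.3 TPM in the ATML1p pools. RCI2A averaged 285 and 304 TPM in the TMMp pools and 1432 and 1099 TPM in the ATML1p pools. TMM was detected in 99.7% of selected TMMp cells and 15.5% of selected ATML1p cells, and RCI2A in 51.3% of the TMMp cells against 100% of the ATML1p cells. YFP itself ranged from 686 to 1013 TPM over the TMMp plates, with a median of 854 TPM. On the ATML1p plates it was at 2041, 2239, 456, 1619 and 1126 TPM, on both sides of the TMMp plates.

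The lines were compared gene by gene on log2(mean TPM + 1), where the mean is over the selected cells of a plate or a pool. Over plates, limma called 1477 of 16053 genes at a Benjamini-Hochberg adjusted p under 0.05, which is 9.20% of those tested. Of these, 1154 were higher in TMMp (7.19%) and 323 were lower (2.01%). Over all tested genes the median difference was 0.59 in log2, not 0, so differences are to be read against that value. With quantile normalization, which brought this median to 0.04, the calls were 667 higher and 566 lower. A gene was tested when at least 5 of the 12 plates reached 1 TPM, which the 7 TMMp plates can meet without ATML1p, whereas a gene of ATML1p alone needs all 5 of its plates. Of the genes called higher, 306 reached 1 TPM on at most 1 ATML1p plate, and of those called lower, 47 did so on at most 1 TMMp plate, so such genes had to differ once tested. With the first 8 selected cells of every plate, 56 TMMp and 40 ATML1p cells in all, the median was 0.31 and the calls were 184 higher and 104 lower, of 11635 genes tested (1.58% and 0.894%). Of the 1477 genes, 1116 could be tested with 8 cells a plate, 1105 kept their direction and 228 were called again. Over pools, 2 against 2, limma called 0 of 17634 genes (0%), with 2897 at an unadjusted p under 0.05 and a lowest adjusted p of 0.0668.

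The criteria were meant to take out mesophyll-like cells, and the photosynthesis genes outside the 5 selecting ones show the change in the comparison. Across all 621 cells, every one of the 30 listed photosynthesis genes was called lower in TMMp over plates, with a median log2 difference of -2.45, beside 6.10% of all genes called lower. Among the selected cells 28 of the 30 were tested, none was called lower, 1 was called higher (RBCS2B), and the median was 0.28. Since the rule held down the 5 related genes, this is a description of the selection and not a test. RBCS1A, a small subunit gene of Rubisco, averaged 625 TPM over the selected TMMp cells and 595 TPM over the selected ATML1p cells. Across all cells limma called 2756 of 17196 genes over plates (16.0%), 1707 higher (9.93%) and 1049 lower (6.10%).

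Each selected cell was put in the first stage class whose genes it detected, in the order FAMA; MUTE or EPF1; SPCH; MYB60 or SCAP1; POLAR, BASL or EPF2; PDF1; and none of these. Shares were compared over plates with a two-sided exact permutation test over all 792 splits of 7 against 5 plates, whose smallest p is 0.00126, and adjusted over the 7 classes. Early classes were more frequent in TMMp. The POLAR, BASL or EPF2 class, with polarity proteins and a peptide of early lineage cells, held 11.8% to 34.8% of the selected cells of a TMMp plate (median 16.7%) and 0.0%, 8.3%, 0.0%, 5.6% and 4.3% on the ATML1p plates. All TMMp plates lay above all ATML1p plates, with means of 19.0% ± 7.5 in TMMp and 3.6% ± 3.6 in ATML1p (SD, n = 7 and 5 plates, exact permutation test, adjusted p = 0.00442).

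The SPCH class held 10.2% ± 3.2 of cells in TMMp and 1.1% ± 2.5 in ATML1p (exact permutation test, n = 7 and 5, adjusted p = 0.00589), from 36 TMMp cells and 1 ATML1p cell. The PDF1 class, cells with protodermal PDF1 and none of the earlier genes, held 19.6% ± 4.4 in TMMp and 9.1% ± 6.6 in ATML1p (exact permutation test, n = 7 and 5, adjusted p = 0.00884). Cells with none of these genes made up 26.8% ± 7.5 in TMMp and 57.4% ± 10.3 in ATML1p (exact permutation test, n = 7 and 5, adjusted p = 0.00442). On single TMMp plates they were 15.2% to 38.3%, and on the ATML1p plates 50.0%, 75.0%, 50.0%, 55.6% and 56.5%, with no overlap. Plate ML2, the one with fewest genes per cell, had the largest share without a stage gene, and with the selected cells of at least 2000 detected genes the share was 21.1% in TMMp and 36.9% in ATML1p, a difference of -15.8 percentage points in place of -30.6 (exact permutation test, n = 7 and 5, adjusted p = 0.0177). Among those cells the POLAR, BASL or EPF2 class differed by 12.3 points (exact permutation test, n = 7 and 5, adjusted p = 0.0641) and the PDF1 class by 7.3 points (exact permutation test, n = 7 and 5, adjusted p = 0.198).

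The later classes did not pass the threshold. The FAMA class held 11.0% ± 4.4 of the selected cells in TMMp and 19.1% ± 11.7 in ATML1p (exact permutation test, n = 7 and 5, adjusted p = 0.127). It came from 39 TMMp cells and 13 ATML1p cells, and plate ML1-5, with 3 such cells of 8, was highest at 37.5%. The MUTE or EPF1 class held 8.9% ± 2.7 in TMMp and 4.5% ± 4.6 in ATML1p (exact permutation test, n = 7 and 5, adjusted p = 0.099), and the MYB60 or SCAP1 class 4.5% ± 2.1 in TMMp and 5.1% ± 8.7 in ATML1p (adjusted p = 0.934). With the first 8 selected cells of each plate, the SPCH, POLAR, PDF1 and no-gene classes kept their directions, and their adjusted p in the exact permutation test lay between 0.159 and 0.718. Among cells with at least 2000 detected genes, the FAMA class was 13.4 percentage points smaller in TMMp (-13.4, exact permutation test, n = 7 and 5, adjusted p = 0.0206), while the POLAR and PDF1 classes missed the threshold (adjusted p = 0.0641 and 0.198).

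**Figure D2:**
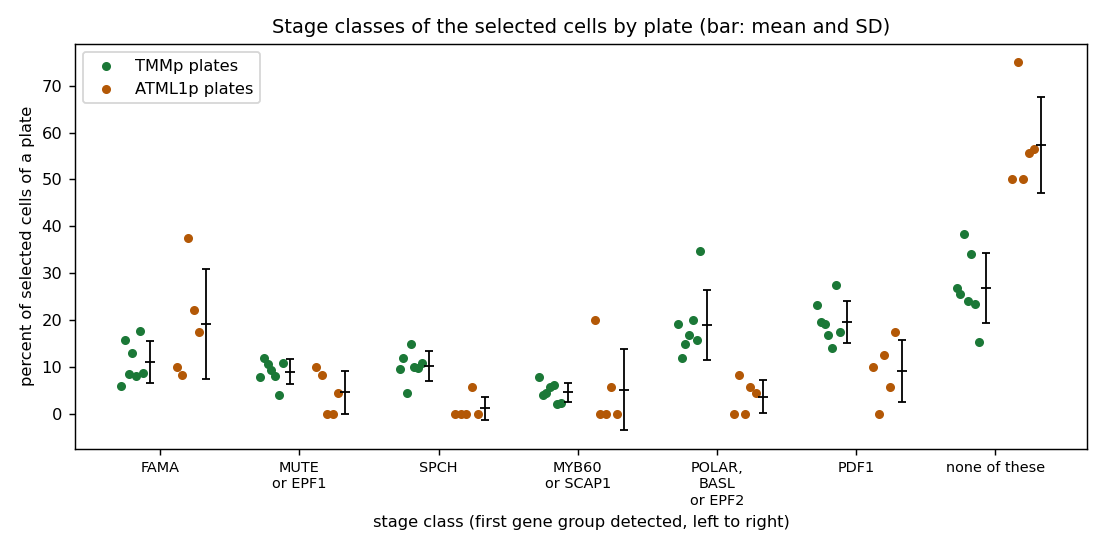
The share of the selected cells of a plate in each stage class, in percent, with 1 point for each TMMp plate (left of each pair) and each ATML1p plate (right), and bars for the mean and SD. The SPCH and POLAR, BASL or EPF2 classes are larger in TMMp, and 50.0% or more of the selected cells of every ATML1p plate detected none of the stage genes.

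Several regulators of early stomatal development were higher in TMMp. Of the 23 genes of the early lineage list, TMM left out, 22 were tested, and 9 were called higher and 0 lower, beside 7.19% and 2.01% of all genes, with a median log2 difference of 2.16 against 0.59 for all genes. SPCH, BASL and CYCD7;1 of the 9 reached 1 TPM on at most 1 ATML1p plate. They passed the filter through the TMMp plates and had to differ once tested, so their limma p are no support for a difference. With the photosynthesis mean held under 3, 1 of 21 tested genes was called (SOL1), beside 3.04% of all genes (2.24% higher and 0.795% lower), with SPCH at 3.14 (limma adjusted p = 0.0579), POLAR at 1.7 (adjusted p = 0.24) and BASL at 1.33 (adjusted p = 0.475). With 8 cells a plate 2 of 18 were called, SOL1 and HDG2, beside 1.58% of all genes. SPCH was at 5.28 to 50.8 TPM over the TMMp plates (median 25.9) and was listed at 0 on 4 ATML1p plates and at 9.66 TPM on ML1-6. The lines overlapped through that 1 ATML1p plate. The log2 difference was 3.94 ± 0.76 SE over plates (limma, adjusted p = 0.00519), and its pools were at 28.1 and 28.3 TPM in TMMp and 0 and 3.55 TPM in ATML1p.

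POLAR, a scaffold protein that becomes polar in dividing lineage cells, ranged from 75.6 to 158 TPM over the TMMp plates (median 132) and was at 14.6, 129, 27.3, 16.1 and 1.73 TPM on the ATML1p plates. Plate ML2 lay within the TMMp range and the other ATML1p plates below it (log2 difference 2.69 ± 0.63, limma adjusted p = 0.0138). BASL, its partner in the polar crescent, ranged from 1.5 to 36.1 TPM over the TMMp plates (median 20.9) and was listed at 0 on all ATML1p plates but ML1-6, at 13.9 TPM (2.91 ± 0.89, limma adjusted p = 0.0463). SDD1, a subtilase that limits stomatal density, averaged 116 and 62.2 TPM in the TMMp pools and 0 and 6.43 TPM in the ATML1p pools (3.73 ± 1.06, limma adjusted p = 0.0341). Its plates overlapped, at 2.31 to 185 TPM in TMMp (median 48.9) and 0, 0, 16.3, 0 and 8.02 TPM in ATML1p. SDD1 was not called with 8 cells a plate (2.92, limma adjusted p = 0.306) or with the photosynthesis mean under 3 (1.78, adjusted p = 0.399). HDG2, an HD-ZIP IV factor that promotes stomatal fate, was at 72.7 to 132 TPM over the TMMp plates and 13.5, 30.1, 73.2, 11.3 and 29.8 TPM on the ATML1p plates, where only ML1-5 reached the TMMp range (1.89 ± 0.42, limma adjusted p = 0.0112).

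SOL1, a tesmin-like DNA-binding protein that acts in lineage transitions, separated the lines without overlap. It was at 70.9 to 123 TPM over the TMMp plates (median 104) and at 30, 15.8, 4.34, 11.2 and 1.01 TPM on the ATML1p plates (log2 difference 3.45 ± 0.54, limma adjusted p = 0.00134). With 8 cells a plate its difference was 4.81 (adjusted p = 0.00932), and without the cells that detected any of 7 stage genes it was 4.5 (adjusted p = 0.0178). Its relative SOL2 was higher by 1.95 ± 0.53 (limma adjusted p = 0.0289), and the receptor ERL1 by 2.27 ± 0.66 (adjusted p = 0.0374). CYCD7;1, the cyclin of the last symmetric division, ranged from 0.483 to 15.9 TPM over the TMMp plates and was listed at 0 on every ATML1p plate.

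The share of cells that detected a gene was tested for 12836 genes with the exact permutation test over plates. It called 379 (2.95%), 180 higher and 199 lower, a balance that changed with the cells and genes taken. Every call had the smallest p, 0.00126, which adjusts to 0.0428, and at least 325 genes at that p were needed for any call, so single calls depend on how many other genes share it. Shares of ATML1p plates rest on fewer cells and scatter more, which the test does not weigh, and with 8 cells a plate 0 genes were called (1353 at an unadjusted p under 0.05). In the early lineage list, 3 of 21 tested genes were called higher and 0 lower. SOL1 was detected in 26.8% ± 3.7 of selected cells in TMMp and 8.1% ± 3.3 in ATML1p, ERL1 in 25.0% in TMMp against 6.5% in ATML1p, and ERL2, another receptor of the family, in 24.4% in TMMp against 6.4% in ATML1p (plate means). With 8 cells a plate SOL1 kept the smallest unadjusted p (0.00126 in the exact permutation test).

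Regulators of later steps did not pass the test over plates. MUTE ranged from 4.19 to 63.8 TPM over the TMMp plates and was at 13, 29.3, 0, 0 and 2.06 TPM on the ATML1p plates (2.25 ± 0.94, limma adjusted p = 0.131). FAMA ranged from 44.4 to 144 TPM over the TMMp plates and was at 7.55, 7.39, 36.3, 20.7 and 153 TPM on the ATML1p plates, so that ML1-7 exceeded every TMMp plate (1.57 ± 0.61, limma adjusted p = 0.106). The peptide EPF1 had a difference of 1.77 ± 0.86 (limma adjusted p = 0.189). EPF2, a peptide of early lineage cells, did not pass either (2.18 ± 0.82, limma adjusted p = 0.0963).

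Among guard cell genes, TGG1, SCAP1 and AT1G22690 were lower in TMMp. Of 19 listed genes 11 were tested, with a median log2 difference of 0.20, below that of all genes. None was called higher and 3 were called lower, beside 7.19% and 2.01% of all genes. With the photosynthesis mean under 3 TGG1 was at -4.60 (limma adjusted p = 0.132) and SCAP1 at -2.01 (adjusted p = 0.124), and AT1G22690 did not pass the filter on low values. TGG1, a myrosinase abundant in guard cells and in phloem idioblasts, ranged from 0.0814 to 788 TPM over the TMMp plates (median 58.4) and was at 2243, 15550, 851, 6939 and 1836 TPM on the ATML1p plates. The groups did not overlap, though the highest TMMp and lowest ATML1p plates were close (log2 difference -5.97 ± 1.16, limma adjusted p = 0.00523). TGG1 was detected in 4.9% ± 2.6 of selected cells in TMMp and 22.3% ± 5.5 in ATML1p (called in the exact permutation test, adjusted p = 0.0428), and it was called lower with 8 cells a plate as well (adjusted p = 0.00485).

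SCAP1, a Dof factor of guard cell maturation, was at 0 to 3.57 TPM over the TMMp plates, with a median of 0, and at 7.68, 4.38, 54.6, 28.6 and 3.75 TPM on the ATML1p plates (-3.11 ± 0.76, limma adjusted p = 0.017). AT1G22690, annotated as a gibberellin-regulated protein, was at 0 to 0.486 TPM over the TMMp plates and 637, 2167, 6.84, 984 and 7.97 TPM on the ATML1p plates, high on ML1, ML2 and ML1-6 and low on the other 2 (-7.18 ± 1.19, limma adjusted p = 0.00187). Reaching 1 TPM on no TMMp plate, it passed the filter through the ATML1p plates alone and had to differ once tested. Its fitted difference is set in part by the pseudocount. In the unselected YFP-negative, photosynthesis-high ATML1p cells it averaged 3243 TPM (12.1% of cells), against 709 TPM (23.9%) in the selected ones. It was listed at 0 in the other unselected ATML1p cells. The part of mesophyll-like cells in its difference was not tested. MYB60, a MYB factor of guard cells, had 50.9 to 130 TPM over the TMMp plates and 49.8, 0, 148, 24.8 and 5.87 TPM on the ATML1p plates and did not pass (2.09 ± 0.83, adjusted p = 0.114).

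Among protodermal genes, PDF1 and HDG5 were higher in TMMp. PDF1 ranged from 659 to 1304 TPM over the TMMp plates (median 803) and was at 46.6, 248, 106, 285 and 827 TPM on the ATML1p plates, with ML1-7 inside the TMMp range (log2 difference 2.1 ± 0.48, limma adjusted p = 0.0122). PDF1 was detected in 59.4% ± 6.4 of selected TMMp cells and 15.5% ± 4.5 of selected ATML1p cells (called in the exact permutation test, adjusted p = 0.0428). HDG5, another HD-ZIP IV factor, was higher by 2.60 ± 0.63 (limma adjusted p = 0.017), with 61.6 and 57.2 TPM in the TMMp pools and 1.46 and 21.8 TPM in the ATML1p pools. PDF2, the close partner of ATML1, did not pass (1.4 ± 0.74, adjusted p = 0.233). Of the 11 listed genes, ATML1 left out, 7 were tested, and 2 were called higher and 0 lower (median 1.4), beside 7.19% and 2.01% of all genes.

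ATML1 is described without a test, since the YFP that chose the ATML1p cells is driven by its promoter. Its transcript was found in 35.5% ± 9.2 of selected cells in TMMp and 92.6% ± 7.5 in ATML1p (plate means and SD), with no overlap between plates. Its mean level was 18.6 to 40.1 TPM over the TMMp plates and 72.6, 103, 28.6, 72 and 86.8 TPM on the ATML1p plates, where only ML1-5 fell in the TMMp range. Within the ATML1p line ATML1 followed YFP. There it was found in 64 of the 71 selected cells and 94.7% of the 19 YFP-positive, photosynthesis-high cells, but in 5.0% of the 20 and 0.0% of the 33 YFP-negative cells with low and high photosynthesis genes. In TMMp it was found in 35.6% of the 351 selected cells and 9.4% of the 64 YFP-negative, photosynthesis-low cells. Whether the ATML1p transgene adds reads to ATML1 was not tested.

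Among 19 tested genes of the 22 listed for cuticle and wax, 5 were called higher and 1 lower, beside 7.19% and 2.01% of all genes, and the median was 0.98. With 8 cells a plate 0 of 15 were called, and KCS1 was at 0.46 (limma adjusted p = 0.782). LTPG1, a lipid transfer protein that exports wax, was at 696 to 937 TPM over the TMMp plates (median 780) and 151, 455, 508, 173 and 526 TPM on the ATML1p plates, without overlap (1.33 ± 0.31, limma adjusted p = 0.0141). KCS1, a fatty acid elongase, was at 149 to 197 TPM over the TMMp plates and 32.9, 84.3, 97.3, 97.9 and 91.7 TPM on the ATML1p plates, also without overlap (1.22 ± 0.31, limma adjusted p = 0.0198). CYP86A8, CER5 and LACS1, which make or export cutin and wax precursors, were higher by 3.37, 1.42 and 3.11. Their limma adjusted p were 0.0112, 0.0472 and 0.0467. CER5 did not overlap between the lines. CYP86A8 reached 1 TPM on ML1-6 alone of the ATML1p plates, where it lay within the TMMp range, and had to differ once tested. LACS1 was at 31.4 to 79.9 TPM over the TMMp plates. On the ATML1p plates it was at 0, 0, 90.7, 0.739 and 36.1 TPM, so ML1-5 exceeded every TMMp plate. CER6, an elongase of very long chains, was lower (-1.58 ± 0.41, limma adjusted p = 0.0222), with 33.1 to 73.1 TPM over the TMMp plates and 49, 124, 292, 191 and 158 TPM on the ATML1p plates, where ML1 lay in the TMMp range. CER6 was at -0.20 with the photosynthesis mean under 3 (limma adjusted p = 0.862) and at -0.19 without cells detecting a stage gene (adjusted p = 0.948).

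Several genes of DNA replication and of mitosis were higher in TMMp. In the S-phase list, with all 18 genes tested, 6 were called higher and 0 lower, beside 7.19% and 2.01% of all genes, with a median of 2.1. CYCA3;1, 1 of the 6, was listed at 0 on every ATML1p plate. It passed the filter through the TMMp plates alone and had to differ once tested, so its call is no support for a difference. PCNA1, the sliding clamp of DNA polymerase, was at 21.1 to 49.4 TPM over the TMMp plates (median 28.6) and 0, 7.22, 0, 4.77 and 19.1 TPM on the ATML1p plates, without overlap (2.96 ± 0.72, limma adjusted p = 0.0171). MCM3 and MCM5, subunits of the replicative helicase, were higher by 3.19 ± 0.81 and 3.05 ± 0.85, and TSO2, a ribonucleotide reductase subunit, by 3.09 ± 0.79. With 8 cells a plate none of 13 tested S-phase genes was called, the list's median was 0.85, and PCNA1 was at -0.83 (adjusted p = 0.785).

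In the G2 and M list 18 of 21 genes were tested, and 5 were called higher and 0 lower, beside 7.19% and 2.01% of all genes, with a median of 2.15. Of the 5, AUR1, AUR2, CYCB1;1 and CYCB1;2 reached 1 TPM on at most 1 ATML1p plate. They had to differ once tested, so their limma p are no support for a difference. With the photosynthesis mean under 3 none of 12 tested genes was called. CYCA2;3, a mitotic cyclin that restrains endoreduplication, was at 37 to 138 TPM over the TMMp plates (median 55.1) and 20.4, 23.8, 6.09, 41 and 15.1 TPM on the ATML1p plates, where ML1-6 reached the TMMp range (1.72 ± 0.47, limma adjusted p = 0.0298). It was also called with 8 cells a plate (4.60, adjusted p = 0.0149). The Aurora kinase AUR1 averaged 32.0 and 16.5 TPM in the TMMp pools and 0 and 4.94 TPM in the ATML1p pools (3.25 ± 0.80, limma adjusted p = 0.0177). CYCB1;2 was at 0.067 to 36 TPM over the TMMp plates and listed at 0 on all ATML1p plates. A mean of 2.3% of the selected cells of a TMMp plate detected it, so its level came from few cells. By share of cells detecting them, 0 of 15 S-phase and 0 of 7 G2 and M genes were called.

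**Figure D3:**
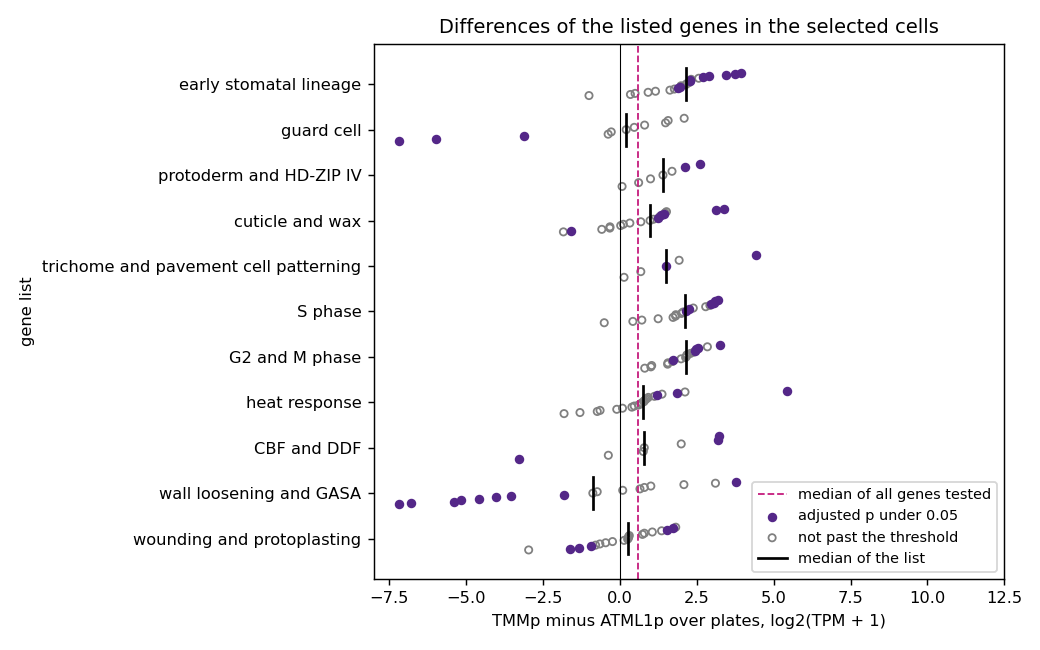
Log2 differences (TMMp minus ATML1p, over plates, log2(TPM + 1)) of the tested genes of 11 lists, with filled points past an adjusted p under 0.05, black bars at the list medians and a dashed line at 0.59, the median of all tested genes. The early stomatal, S-phase and G2 and M medians, at 2.16, 2.1 and 2.15, lie furthest right of the line, and the wall loosening median, at -0.88, furthest left.

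Beyond the lists, genes were named by size: called over plates, no overlap between the 7 and 5 plate values, and at least 10 TPM and detection in at least 20% of selected cells in both pools of the higher line. This left 276 genes higher and 105 lower in TMMp, and the 12 with the largest log2 difference on each side are described. RBCS2B, one of the nuclear small subunit genes of Rubisco, headed the higher side. It was at 196 to 286 TPM over the TMMp plates (median 237) and was listed at 0 on all 5 ATML1p plates. Detection reached 95.2% ± 2.9 of selected cells on the TMMp plates and 0 of 71 selected ATML1p cells. RBCS2B passed the filter through the TMMp plates alone, and its fitted difference of 7.92 is set by the pseudocount and gives no fold, so no test is given for it. With all cells its direction turned (-1.81, limma adjusted p = 0.00184), as did those of AT1G48355 (-1.8), EMB3105 (-1.84) and CLA1 (-0.12).

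RBCS2B did not go with the other small subunit genes or with the reporter. RBCS3B averaged 53.3 TPM over the selected TMMp cells and 63.7 TPM over the selected ATML1p cells, and RBCS1B 0.0309 TPM in TMMp and 0.926 TPM in ATML1p. RBCS2B was detected in 73.4% of the 64 YFP-negative, photosynthesis-low TMMp cells, at a mean of 237 TPM, and in 0.0% of the 20 such ATML1p cells. In the YFP-negative, photosynthesis-high ATML1p cells it was detected in 84.8%, at a mean of 3895 TPM. Across the 351 selected TMMp cells, which share plates and depth, its Spearman correlation was -0.27 with YFP, -0.32 with TMM and -0.53 with RBCS1A, whereas TMM and YFP stood at 0.92. The RBCS genes are close copies whose reads may be split between them, so the level of a single copy is uncertain.

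**Figure D4:**
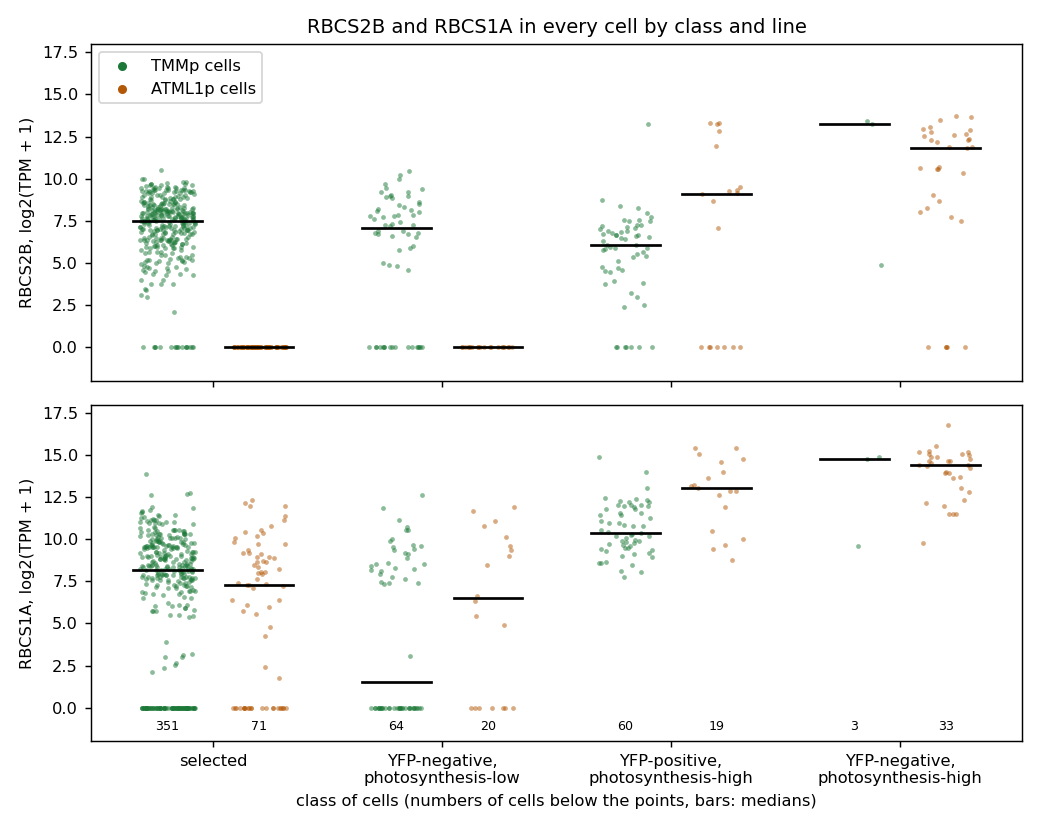
RBCS2B (upper panel) and RBCS1A (lower panel) in log2(TPM + 1) in every cell, by class of cells on the x axis, with TMMp left and ATML1p right in each pair, black bars at the medians and cell numbers under the points. In the selected class RBCS2B is present in nearly all TMMp cells and at 0 in all 71 ATML1p cells, while RBCS1A overlaps between the lines.

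Other genes of the higher side included some of the endoplasmic reticulum, the cytoskeleton and the nucleolus, which were not tested as a set. PDIL2-2, a protein disulfide isomerase, was at 91.4 to 168 TPM over the TMMp plates (median 141) and 42, 0, 9.49, 15.5 and 31.5 TPM on the ATML1p plates (3.49 ± 0.67, limma adjusted p = 0.00503). AT5G07340, a calreticulin family protein, was at 49 to 75.3 TPM (median 69.6) over the TMMp plates and 9.29, 0, 3.92, 5.23 and 7.95 TPM on the ATML1p plates (3.75 ± 0.55, limma adjusted p = 0.000635). Both belong to protein folding in the endoplasmic reticulum, and on both plate ML2 was listed at 0. The tubulin gene TUB8 was higher by 3.54 ± 0.78 and NOP10, a nucleolar protein of RNA modification, by 3.73 ± 0.74 (limma adjusted p = 0.011 and 0.00574).

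CLA1, the first enzyme of the plastid isoprenoid pathway, was at 39.5 to 96.2 TPM over the TMMp plates (median 65.1) and 14.6, 0, 0, 18.8 and 20.2 TPM on the ATML1p plates (3.53 ± 0.75, limma adjusted p = 0.00897). PRMT10, an arginine methyltransferase, was higher by 3.26 ± 0.76 (limma adjusted p = 0.0138). AT1G52910, a DUF1218 protein, was at 460 to 973 TPM over the TMMp plates and 138, 0, 357, 61.6 and 200 TPM on the ATML1p plates (3.49 ± 0.95, limma adjusted p = 0.0284). The antisense RNA AT1G07847 overlaps AT1G52910 in the TAIR10.1 annotation and had a difference of 3.85 ± 1.07, and since no strand setting is given, reads of the 2 cannot be told apart. The same holds for EMB3105, a ribosomal L18p/L5e protein (3.25 ± 0.72), and the overlapping AT1G48355 (3.62 ± 0.84). SOL1, POLAR, HDG2, GAD4, LAC8, RGLG3, AT5G40450 and AT1G22690 each overlap another annotated gene too, and the part of its reads was not tested. Of the 12 genes furthest up, 8 were called again with 8 cells a plate and 8 by detection share. Over all genes 2.48% and 2.95% were called in these 2 readouts, in either direction. Both readouts use cells that chose the 12 genes, so the repeated calls are no independent support. RBCS2B, which had to differ, is among both sets of 8. CLA1, PRMT10, EMB3105 and AT1G48355 were not called with 8 cells a plate (adjusted p between 0.0551 and 0.173).

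**Figure D5:**
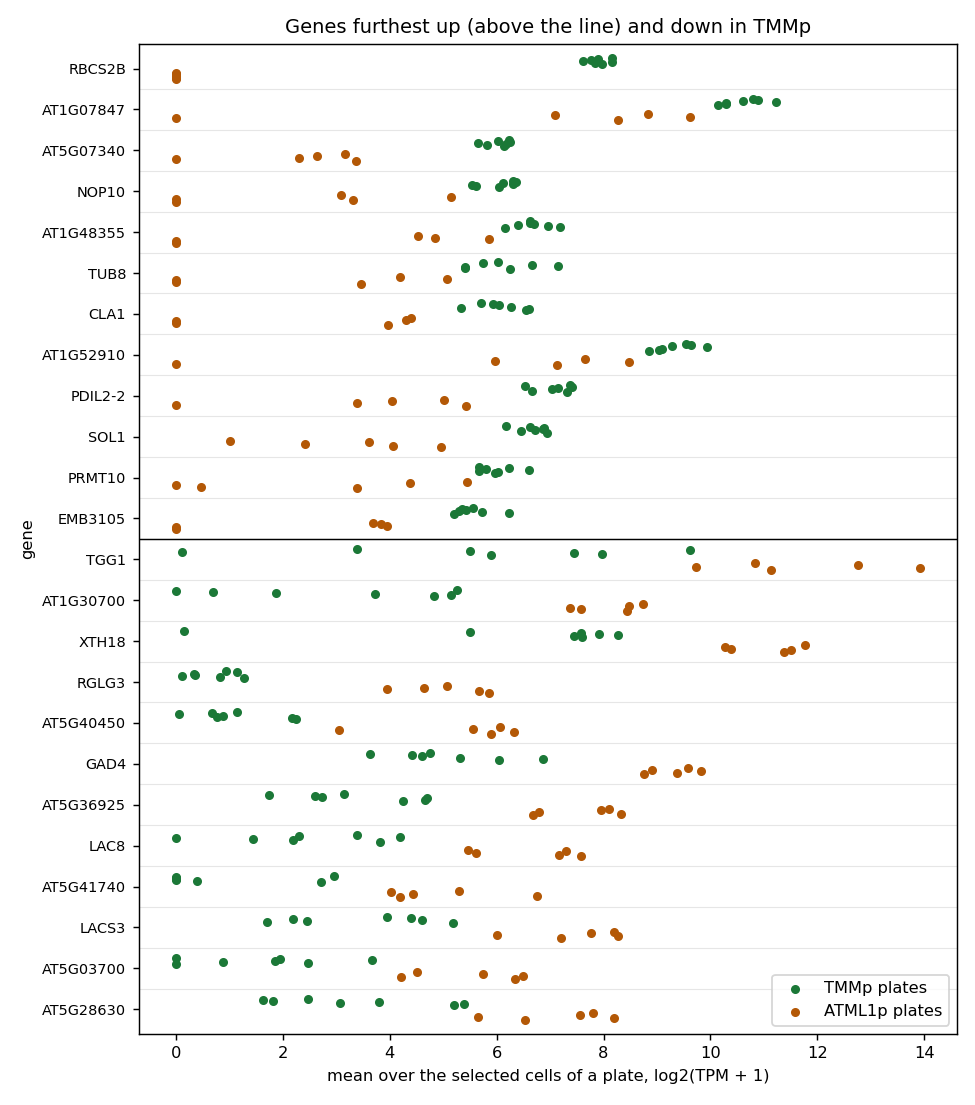
Means over the selected cells of each plate, in log2(TPM + 1), for the 12 genes furthest up (above the line) and the 12 furthest down in TMMp, with the 7 TMMp plates drawn above the 5 ATML1p plates. No gene overlaps between the lines, by the rule that chose them, and RBCS2B is at 0 on all ATML1p plates.

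The lower side was led by TGG1, followed by AT1G30700 and XTH18. XTH18, a xyloglucan-modifying wall enzyme, was at 0.117 to 307 TPM over the TMMp plates (median 191) and 2648, 2921, 1342, 1229 and 3505 TPM on the ATML1p plates (-4.71 ± 0.99, limma adjusted p = 0.00825). Plate TMM7 was near 0, away from the other TMMp plates. XTH18 was detected in 12.4% ± 5.5 of selected cells in TMMp and 40.1% ± 20.2 in ATML1p. Among unselected ATML1p cells it was detected in 50.0% of the YFP-negative, photosynthesis-low and 31.6% of the YFP-positive, photosynthesis-high cells. In the YFP-negative, photosynthesis-high ones the share was 75.8%, so XTH18 was not particular to the selected cells. AT1G30700, a berberine bridge enzyme-like protein, was at 0 to 37.5 TPM over the TMMp plates (median 12.3) and 347, 191, 166, 354 and 425 TPM on the ATML1p plates (-5.04 ± 0.82, limma adjusted p = 0.00167). LAC8, a laccase, fell by 4.15 on the log2 scale (± 0.70, limma adjusted p = 0.00204), and AT5G41740, an immune receptor of the TIR-NBS-LRR class, by 4.08 (± 0.78, adjusted p = 0.00489). AT5G41740 was detected in 21.1% of selected ATML1p cells, and in 25.0%, 31.6% and 33.3% of the unselected classes in the order given for XTH18. AT1G30700 was detected in 28.2% of selected ATML1p cells, and in 45.0%, 10.5% and 9.1% of those classes. LAC8 was detected in 28.2% of selected ATML1p cells, and in 30.0%, 5.3% and 6.1% of them. Among photosynthesis-low ATML1p cells, AT1G30700 and LAC8 were thus not particular to the selected ones.

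GAD4, a glutamate decarboxylase that makes GABA, was at 11.4 to 115 TPM over the TMMp plates (median 25.9) and 433, 661, 909, 481 and 761 TPM on the ATML1p plates (-4.20 ± 0.45, limma adjusted p = 4.53e-05). GAD4 was detected in 9.7% ± 2.7 of selected TMMp cells and 33.3% ± 8.0 of selected ATML1p cells. Among unselected ATML1p cells it was detected in 55.0% of the YFP-negative, photosynthesis-low and 47.4% of the YFP-positive, photosynthesis-high cells. In the YFP-negative, photosynthesis-high ones the share was 39.4%, so GAD4 was not particular to the selected cells. LACS3, a long-chain acyl-CoA synthetase, was at 2.27 to 35.3 TPM over the TMMp plates and 146, 306, 63.6, 217 and 290 TPM on the ATML1p plates (-3.99 ± 0.62, limma adjusted p = 0.00119). Both were called lower among all cells too (-3.59 and -3.30). RGLG3, a RING ubiquitin ligase, fell by 4.33 on the log2 scale, AT5G40450, annotated as A-kinase anchor-like, by 4.24, and the uncharacterized AT5G36925 by 4.17. AT5G36925 was detected in 29.6% of selected ATML1p cells, and in 30.0%, 42.1% and 45.5% of the unselected classes in the order given for GAD4. LACS3 was detected in 33.8% of selected ATML1p cells, and in 35.0%, 0.0% and 3.0% of those classes. Among photosynthesis-low ATML1p cells LACS3 was thus not particular to the selected ones. The lectin AT5G03700 and the glycine-rich protein AT5G28630 fell by 3.92 and 3.81. Of the 12 genes, 9 were called again with 8 cells a plate and 9 by share of detecting cells, beside 2.48% and 2.95% of all genes. These readouts too use cells that chose the genes and are no independent support. RGLG3, AT5G40450 and LAC8 were not called with 8 cells a plate (limma adjusted p between 0.0548 and 0.232).

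Some water channels, wall enzymes and GASA peptides were lower in TMMp, but most of these calls were not made under stricter cell criteria. Of 17 tested genes of the 19 listed for wall loosening and growth, 8 were called lower and 1 higher, beside 2.01% and 7.19% of all genes, and the median was -0.88. Of the 8, AT1G22690, GASA1, TIP1;1 and XTH4 reached 1 TPM on at most 1 TMMp plate, so they had to differ once tested. With the photosynthesis mean under 3, 11 genes could be tested, their median was 1.22 and 1 was called lower (XTH24), beside 0.795% of all genes. PIP2;1, a plasma membrane aquaporin, was at 2.45 to 24.6 TPM over the TMMp plates (median 17.1) and 1024, 124, 257, 604 and 31.9 TPM on the ATML1p plates, without overlap (-4.04 ± 0.70, limma adjusted p = 0.00264). PIP2;1 turned to 1.07 with the photosynthesis mean under 3 (limma adjusted p = 0.636) and was at -1.85 with 8 cells a plate (adjusted p = 0.532), and in the YFP-positive, photosynthesis-high cells its mean was 119 TPM for TMMp against 1975 TPM for ATML1p. XTH4 was at 0 to 4.23 TPM over the TMMp plates and 25.7, 442, 27.4, 20.8 and 56.8 TPM on the ATML1p plates (-5.39 ± 0.80, limma adjusted p = 0.000758). GASA1, of the gibberellin-regulated family, averaged 2.24 and 0 TPM in the TMMp pools and 842 and 320 TPM in the ATML1p pools. In the unselected photosynthesis-high ATML1p cells GASA1 averaged 957 TPM where YFP was detected and 2816 TPM where it was not, and the part of mesophyll-like cells in its difference was not tested. Few cells carried these levels: GASA1 was detected in 0.3% of selected cells in TMMp against 14.3% in ATML1p, and XTH4 in 0.3% in TMMp against 11.6% in ATML1p (plate means). XTH9 was the gene of the list called higher (3.77 ± 0.77, limma adjusted p = 0.00693). With 8 cells a plate the median of the 11 tested genes was 0.92, with 2 called lower (AT1G22690 and XTH24) and 0 higher, beside 0.894% and 1.58% of all genes.

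In the heat list all 22 genes were tested, and 3 were called higher and 0 lower, beside 7.19% and 2.01% of all genes, with a median of 0.74, near the 0.59 of all genes. HSP18.2, a small heat shock protein, was at 59.3 to 215 TPM over the TMMp plates (median 124) and 0, 0, 20.9, 2.97 and 0 TPM on the ATML1p plates, without overlap (5.42 ± 0.71, limma adjusted p = 0.000244). HSP18.2 was detected in 9.6% ± 4.7 of selected TMMp cells and 3.6% ± 5.5 of selected ATML1p cells. DDF1, a CBF-like transcription factor, was at 83.9 to 430 TPM over the TMMp plates (median 229) and 19.1, 23.2, 15.3, 26.9 and 37.5 TPM on the ATML1p plates (3.20 ± 0.40, limma adjusted p = 0.000145). It was at 2.62 with 8 cells a plate (limma adjusted p = 0.428) and at 5.92 without cells detecting a stage gene (adjusted p = 0.00296). DDF1 was detected in 21.7% of selected TMMp cells (mean 248 TPM) and 11.3% of selected ATML1p cells. In YFP-negative, photosynthesis-low cells the shares were 21.9% in TMMp (mean 358 TPM) and 0.0% in ATML1p. DDF1 was thus not particular to the selected cells of TMMp. CBF2 was higher by 3.23 ± 0.81, and the cold-regulated KIN1 fell by 3.30 on the log2 scale. In the CBF and DDF list 2 of 7 tested genes, of 10 listed, were thus called higher and 1 lower, beside 7.19% and 2.01% of all genes.

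Of 23 wounding and protoplasting genes 20 were tested, and 2 were called higher and 3 lower, beside 7.19% and 2.01% of all genes, with a median of 0.26. TCH2, a calmodulin-like protein, was at 358 to 563 TPM over the TMMp plates and 140, 193, 157, 120 and 132 TPM on the ATML1p plates, without overlap (1.54 ± 0.24, limma adjusted p = 0.00134). JAZ10 was higher by 1.72 ± 0.31, whereas JAZ1, another repressor of jasmonate signalling, was lower (-1.61 ± 0.26, limma adjusted p = 0.00148), with 279 to 709 TPM over the TMMp plates and 1414, 1105, 1190, 774 and 1011 TPM on the ATML1p plates. JAZ1 was detected in 49.8% of TMMp and 78.5% of ATML1p cells (plate means). OPR3, a jasmonate synthesis enzyme, and the stress factor WRKY40 fell by 0.94 and 1.34 on the log2 scale.

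ATMYC1, a bHLH factor of trichome and root hair patterning, was at 21.1 to 42.4 TPM over the TMMp plates (median 25.7) and listed at 0 on 4 ATML1p plates, with 4.21 TPM on ML1-6 (4.44 ± 0.63, limma adjusted p = 0.000533). It passed the filter on low values through the TMMp plates and had to differ once tested, so this p is no support for a difference. Of the selected cells of a plate, 9.3% ± 3.4 in TMMp and 1.1% ± 2.5 in ATML1p detected it. TTG1, its WD40 partner, was higher by 1.49 ± 0.42 (limma adjusted p = 0.0319). These were the 2 genes called of 5 tested and 12 listed for trichome and pavement cell patterning, beside 7.19% of all genes called higher and 2.01% called lower. Of 15 vascular genes 1 passed the filter on low values, SUC2, and it was not called (1.95, adjusted p = 0.0902).

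Leaving out every cell that detected SPCH, MUTE, FAMA, EPF1, EPF2, POLAR or BASL asked how far stage cells carried the differences. Over plates 333 of 12792 genes were then called (2.60%), 223 higher (1.74%) and 110 lower (0.860%). In the early lineage list 2 of 15 tested genes were called higher (median 1.47), and in the heat list 11 of 22 were (median 2.01), beside 1.74% of all genes. PDF1 was at 2.84 (limma adjusted p = 0.125), GAD4 at -4.02 (adjusted p = 2.7e-05) and XTH18 at -4.95 (adjusted p = 0.00752). SDD1, at 3.73 among all selected cells, was at 0.24 here (adjusted p = 0.936). The difference between these 2 comparisons, which share cells, was not tested.

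The sorter recorded each selected cell's fluorescence and scatter, in log2 units. The FITC area, the channel that reads YFP, had plate medians of 10.68 to 11.0 in TMMp (median 10.92) and 12.82, 12.96, 13.22, 13.54 and 13.69 in ATML1p, without overlap. The means were 10.9 ± 0.11 in TMMp and 13.25 ± 0.37 in ATML1p (SD, n = 7 and 5 plates). No test is given for it, since the lines carry different YFP reporters and the cells were chosen on YFP transcript. YFP transcript did not separate the plates in this way. Side scatter area was 10.3 to 10.75 over the TMMp plates and 11.53, 10.79, 11.34, 11.46 and 11.41 on the ATML1p plates (exact permutation test, n = 7 and 5, adjusted p = 0.00253). Forward scatter area averaged 16.6 ± 0.06 in TMMp and 16.88 ± 0.34 in ATML1p (exact permutation test, n = 7 and 5, adjusted p = 0.0929), with ML2, at 16.3, below all other plates. Genes per cell averaged 2835 ± 277 in TMMp and 3054 ± 1008 in ATML1p (exact permutation test, n = 7 and 5, adjusted p = 0.607). Brightness, scatter and line moved together, and their parts in the differences of gene level were not tested.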

How the data were processed

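Single cells sorted from 2 reporter lines were profiled with Smart-seq2. The authors deposited a TPM table for each line, as the file headers show, and the values of a cell summed to between 999559 and 1000086. The authors' sort table holds log2 values of scatter and fluorescence, per the file headers. Cell Ranger and TAIR10 appear in the submitters' processing notes without a role, and the program that made the TPM is not given in the sources used here. Droplet samples (10X) were not analysed here. Names came from the TAIR10.1 annotation, which held 32548 of 32833 genes, and its coordinates served only to find overlapping genes.

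The members and gene lists were chosen with earlier results of these data known. Mean TPM over the selected cells of a pool or plate was transformed as log2(TPM + 1), a scale that compresses changes of low genes, and genes at 1 TPM or more in at least 2 pools or 5 plates were tested with limma 3.58.1 in R 4.3.3 (eBayes with trend, Benjamini-Hochberg over all genes tested). In log2 means over few cells, genes carried by few cells tend to read low, which bears on ATML1p plates. Shares of cells at a TPM of at least 1 (genes in at least 5% of selected cells), stage classes and sorter signals were compared over plates with two-sided exact permutation tests (Python 3.11.15, scipy 1.17.1, numpy 2.4.6). Steps were tested on simulated data. No pair of cells had identical values, and no doublet caller was run, since there are no counts. The planned test of ATML1 is not reported, since its promoter drives the YFP used for selection. Named genes were the 12 furthest up and 12 furthest down under the rule in the text, 19 fixed genes, and the called members of 13 lists with some others. Alternatives were the pseudocount, filters on low values, mean of log2, capped values, quantile normalization, other cell criteria, a replicate block, weights and leaving out plates and pools. Equal cell numbers (8 a plate) and leaving plate ML2 out of the pools were added after seeing the data.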

Additional observations from a re-analysis of the deposited data

Results flagged for a closer look

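In 198 groups of 5 or 7 plates (stage classes, sorter signals, named genes and called list genes in each line), 25 had 1 plate far from the others. Chance alone gives some such flags, and where the other plates are at 0 a single detecting cell can set one. The groups include genes called in these same data, so the count is no measure of an excess over chance. The parts of these plates in the differences were not tested. On plate ML1-6 of ATML1p 5.6% of selected cells, 1 of 18, were in the SPCH class, against 0.0% on the other ATML1p plates. There log2(TPM + 1) was 3.41 for SPCH, 3.90 for BASL, 2.38 for ATMYC1, 1.37 for AUR2 and 3.36 for SUC2, and 0.00 on the other ATML1p plates. SPCH, BASL and ATMYC1 were each detected in 1 selected ATML1p cell. Plate ML1-6 was also high for AUR1, at 3.78 (0.00 to 0.66), and CYP86A8, at 3.76 (0.00 to 0.22). The POLAR, BASL or EPF2 class was larger on ML2, at 8.3%, than on ML1-6, at 5.6%. On plate ML2, which had the fewest genes per cell, 75.0% of selected cells had no stage gene (50.0% to 56.5% on the other ATML1p plates), side scatter area was 10.79 (11.34 to 11.53), and AT1G07847 was at 0.00 (7.09 to 9.62 in log2) and HSP70B at 5.15 (8.32 to 9.15). Plate ML1 had 20.0% of its cells in the MYB60 or SCAP1 class, from 2 of 10 cells, against 0.0% to 5.6% on the others, KCS1 at 5.08 (6.42 to 6.63) and CYCB1;1 at 1.17 (0.00 to 0.21). Plate ML1-5, with 8 selected cells, was low for AT5G40450, at 3.05 against 5.56 to 6.33, and for ATML1, at 4.89 against 6.19 to 6.69 (log2). In TMMp, plate TMM7 had 34.8% of its cells in the POLAR, BASL or EPF2 class (11.8% to 20.0% on the other TMMp plates) and XTH18 at 0.16 (5.5 to 8.27 on the others). Plate TMM-1 was at 0.57 for AT1G22690 (0.00 to 0.12 on the others), 2.44 for GASA1 (0.00) and 9.47 for JAZ1 (8.13 to 8.56). The wall genes TIP1;1 at 3.44 on TMM4 (0.00 to 0.50), XTH24 at 5.41 on TMM3 (0.00 to 1.91) and XTH4 at 2.39 on TMM-2 (0.00) were each high on 1 TMMp plate.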

How the results depend on the processing

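Over plates, 1477 genes were called. Counts were 870 with log2 taken before averaging over cells, 2756 with all cells, 2622 with the YFP criterion alone, 455 with the photosynthesis mean under 3, 925 with at least 2000 genes per cell, 333 without stage-gene cells, 288 with 8 cells a plate, 949 with pool as a random block and 812 with plates weighted by cells. Leaving out plates or pools gave 0 to 2457: 972 without TMM-2, 898 without TMM4, 915 without TMM6, 647 without TMMp pool 1, 0 without TMMp pool 2 (2 plates against 5, 1719 at an unadjusted p under 0.05, 35 named genes losing the call) and 2457 without ATML1p pool 2. The cause was not tested beyond the smaller number of cells or plates. Over pools, limma called 0 genes in the comparison reported and in each of the 4 fits without 1 pool (2897 unadjusted), 45 with a pseudocount of 10, 33 at 5 TPM or more, 143 with the mean of log2 values, 12 with capped values, 127 with quantile normalization, 430 with all cells, 47 with the YFP and 23 with the photosynthesis criterion alone. With a replicate block on the pool number 582 genes were called over pools and 1463 over plates. The pool deviations of the lines correlated at 0.02 across genes, so the numbers do not pair the pools. Detection shares gave 379 calls, 1187 with all cells, 0 with the photosynthesis mean under 3 (2244 unadjusted), 0 with 8 cells a plate, and 0 to 1006 without 1 plate, where the smallest possible p is larger. The count of 1006 was without ML2 (208 higher and 798 lower). With at least 2000 genes per cell 1396 were called (180 higher and 1216 lower). Among genes in at least 20% of selected cells 297 were called (216 higher and 81 lower).

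For stage classes (percentage points, TMMp minus ATML1p), FAMA was at -8.1, at 0.3 with all cells, -13.4 with at least 2000 genes and -10.7 to -3.4 without 1 plate. MUTE or EPF1, at 4.3 and not called, was at 1.4 with at least 2000 genes, 1.2 with photosynthesis under 3, 8.2 with 8 cells, 6.5 with all cells (called) and 3.2 to 5.7 without 1 plate, called without TMM6, ML1 or ML2. SPCH was at 5.4 with 8 cells a plate. MYB60 or SCAP1, at -0.6, was at 2.6 with all cells, 0.4 with 8 cells and -1.9 to 3.1 without 1 plate (3.1 without ML1). POLAR, BASL or EPF2, at 15.4, was at 12.3 with at least 2000 genes and 11.1 with 8 cells. PDF1, at 10.5, was at 7.3, 8.3 with photosynthesis under 3 and 6.1 with 8 cells, and the cells with none, at -30.6, were at -15.8 with at least 2000 genes and -46.9 with all cells, both called, and -27.1 with 8 cells, not called. Forward scatter area was at -0.34 and -0.31 and height at -0.27 and -0.27 with at least 2000 genes and with photosynthesis under 3, past the threshold, and at -0.43 to -0.22 and -0.35 to -0.16 without 1 plate. Genes per cell were at -950.34 with at least 2000 genes, 309.03 with 8 cells and -639.21 to 41.41 without 1 plate. Of the values of named and called list genes under the alternatives, 2139 kept direction and side of the threshold, 512 kept direction and lost the call, 24 gained it and 11 turned: with all cells RBCS2B (-1.81), AT1G48355 (-1.8), CLA1 (-0.12) and EMB3105 (-1.84), with the YFP criterion alone RBCS2B (-0.45), without ATML1p pool 2 MUTE (-0.05, and up to 3.78 without pool 1), with the mean of log2 values FAMA (-0.36), with 8 cells a plate PCNA1 (-0.83) and PIP1;2 (0.92), with photosynthesis under 3 PIP2;1 (1.07) and with at least 2000 genes OPR3 (0.16).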
